A study of Sus scrofa with 16 samples.

Results

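Acute-phase proteins are plasma proteins whose blood levels change in inflammation, infection or injury, and most of them are made by hepatocytes. Interleukin-6, interleukin-1 and glucocorticoids act on the liver to switch on their genes, through transcription factors such as STAT3, C/EBP and NF-kappaB. In pigs CRP, serum amyloid A, HP and ITIH4, the last also called pig major acute-phase protein, serve as blood markers of inflammation. The genes described here are CRP, LBP, ITIH3, ITIH4, APCS, HP, ORM1, SAA2 and A2M, chosen by name as a set of acute-phase plasma proteins. Every probe set that the array annotation gives to only 1 of these symbols was taken, which made 17 probe sets of 9 genes, out of 10069 probe sets of 6765 genes with a single symbol.

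Liver and the backfat under the skin were sampled from pigs of the Iberian breed, which lays down much fat, at 211 days of age. Male and female pigs received either a high feeding level or a level restricted by 20%, called low here, of the same pelleted diet. No sample came from an animal with an induced infection or inflammation, as far as the labels say, and they give no word on castration of the males. Each of the 8 groups of tissue, sex and feeding level held 2 arrays, so that each tissue had 4 high and 4 low arrays, and 4 male and 4 female arrays. The labels give liver females the numbers 18 to 21 and backfat females the numbers 20 to 23, and numbers 20 and 21 stand at opposite feeding levels in the tissues. Female arrays were therefore treated as unrelated across tissues, whereas males 14 to 17 gave both tissues.

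Levels are log2 expression values, in which a difference of 1 is a doubling. A value of 4, close to the median of every array (3.93 to 4.12), was used as the level below which a probe set was not counted as measured. Array maxima lay between 15.46 and 15.62. The mean of 13 hepatocyte markers was 13.49 to 13.89 in liver, and the mean of 6 adipocyte markers was 11.37 to 12.53 in backfat and 2.41 to 2.82 in liver. All 6 adipocyte markers stood above 4 on every backfat array, as did all 13 hepatocyte markers on every liver array. Neutrophil markers averaged 2.46 to 3.11 in liver and 3.09 to 4.37 in backfat. Levels of different probe sets cannot be set against each other, because probes differ in brightness, so each probe set was compared with itself across arrays. Where a gene has several probe sets, each is called by the part of its array identifier that sets it apart: 17030 and 18948 for SAA2, 7100, 7669 and 18753 for ORM1, 16603, 26317 S1 and 26317 A1 for A2M, S1 and A1 for LBP, and probe sets 1, 2 and 3 for ITIH3. The RefSeq gene table of assembly Sscrofa11.1 matched all 9 genes and holds 2 adjacent genes named CRP. APCS lies near them, with 2 genes between it and the matched CRP gene, and ITIH3 and ITIH4 are direct neighbours. Whether the CRP probes separate those 2 CRP genes, or the ORM1 and SAA2 probes separate close relatives of those genes, was not tested.

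The liver against backfat comparison asked where these genes are expressed. Of the 17 probe sets, 15 passed the filter of 4 on at least 2 arrays, and all 9 genes were among them. With limma and Benjamini-Hochberg adjustment, 14 of the 15 were higher in liver and 1 was lower, against a background of 32.2% of all 13962 tested probe sets higher and 43.6% lower (75.7% in all). The median difference over the 15 was 6.09, or 4.96 with values under 4 set to 4, and it was -0.15 over all tested probe sets. Adjusted p-values of the 15 ran from 1.68e-12 to 0.00111. Among the 15 were probe sets of CRP, LBP, APCS, ORM1, SAA2 and A2M with at most 1 backfat array above 4. These passed the filter through their liver values, which all but fixed their direction, so the count of higher probe sets is no separate evidence for them. The rest of the 15 were above 4 on at least 2 backfat arrays, and of these all but 1, of SAA2, were higher in liver.

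The pentraxins, ring-forming proteins that bind damaged cells and microbes, were CRP and APCS, the serum amyloid P component. APCS stood between 11.62 and 13.96 in liver and between 2.11 and 2.65 on 7 of 8 backfat arrays, with 4.96 in backfat of male 15. With backfat values under 4 set to 4, the liver minus backfat difference of APCS was 8.94, with an adjusted p of 3.65e-13 by limma. CRP stood between 8.07 and 13.24 in liver and between 2.39 and 2.81 on 7 of 8 backfat arrays, with 4.46 in backfat of female 20. Treated in the same way, the difference of CRP was 6.81, with an adjusted p of 1.98e-10 by limma. Both genes thus reached the measured range on a single backfat array each, and not on the same one. They passed the filter through their liver values, and setting 7 of 8 backfat values to 4 removes most of the backfat spread. The p-values of both are therefore no separate evidence for the direction.

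LBP, which carries bacterial lipopolysaccharide to CD14, lay between 9.92 and 12.63 in liver and did not exceed 2.99 in backfat on its probe set S1. It was at least 157-fold higher in liver, where the fold is the liver mean set against 4, since no backfat array was above 4. ORM1, the plasma alpha-1-acid glycoprotein that binds drugs and steroids, was at least 596-fold higher in liver on 7100, with liver values of 11.94 to 14.49 and backfat values up to 3.31. Other probe sets of ORM1 behaved differently. On 7669 ORM1 stood at 9.12 to 11.04 in liver and 8.50 to 8.94 in backfat, a difference of 0.999 ± 0.20 (SE), and on 18753 it was below 4 on all 16 arrays.

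HP, the haptoglobin that binds free haemoglobin, stood between 14.87 and 15.33 in liver, close to the array maxima. In backfat it ranged from 3.10 to 9.57, the widest range of the 17 probe sets in that tissue. ITIH4 ranged from 12.86 to 15.19 in liver and from 2.67 to 7.44 in backfat. Their tissue differences were 8.75 ± 0.79 (SE) for HP and 8.95 ± 0.47 (SE) for ITIH4. A2M, alpha-2-macroglobulin, which traps proteases, stood at 14.08 to 14.89 in liver and 6.24 to 8.57 in backfat on 16603, a difference of 6.72 ± 0.23 (SE). Its probe set 26317 S1 was at least 31.2-fold higher in liver, and 26317 A1 was above 4 on 1 array of 16 and was not tested. ITIH3, a heavy chain that is joined to hyaluronan in the matrix, was measured in both tissues, with 11.32 to 12.02 in liver and 7.17 to 9.52 in backfat on probe set 2. The tissue differences on its probe sets 2, 1 and 3 were 3.64 ± 0.20, 2.16 ± 0.24 and 1.30 ± 0.28 (SE), the last 0.98 with values under 4 set to 4.

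SAA2, a serum amyloid A apolipoprotein carried on high-density lipoprotein, gave opposite directions on its 2 probe sets. On 17030 SAA2 was lower in liver, with a liver minus backfat difference of -1.36 ± 0.11 (SE), 6.18 to 7.40 in liver and 7.68 to 8.24 in backfat and no overlap. On 18948 it reached 3.20 to 6.74 in liver and 3.14 to 3.21 in backfat, at least 1.99-fold higher in liver. With the mean of both probe sets in place of either, the difference was 0.23 with an adjusted p of 0.177 by limma. The direction for SAA2 therefore depended on the probe set.

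**Figure D1:**
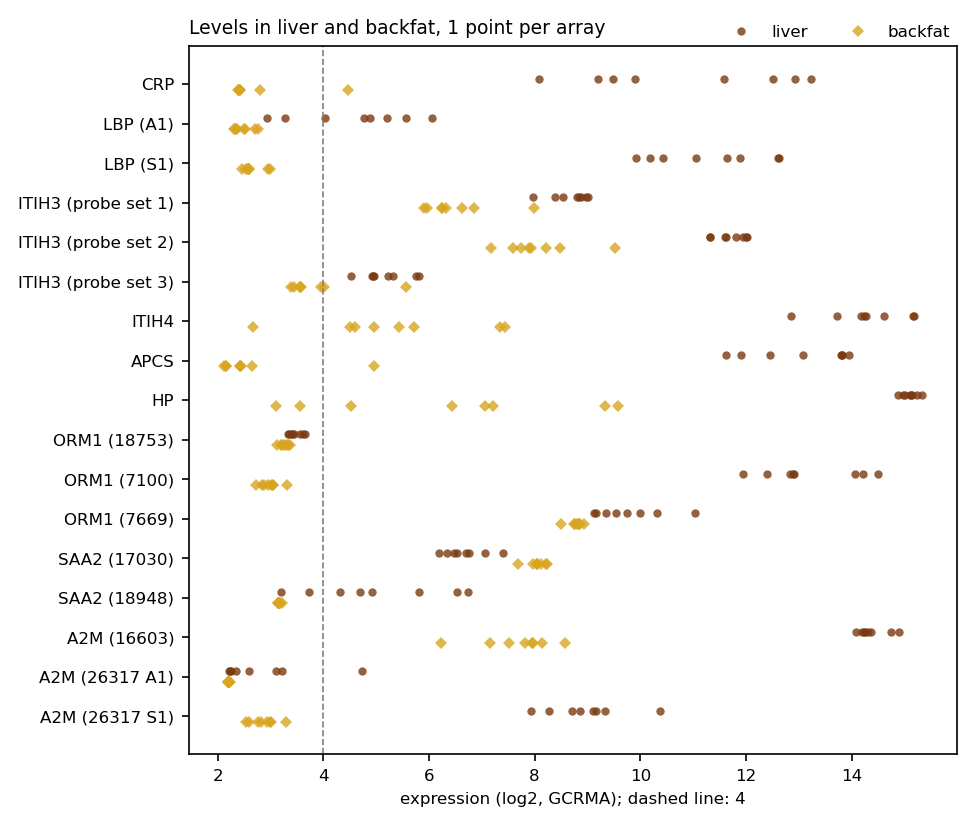
Expression (log2, horizontal axis) of the 17 probe sets on each of the 8 liver arrays (brown circles) and 8 backfat arrays (yellow diamonds), with a dashed line at 4. APCS and ORM1 (7100) reach 11.62 to 13.96 and 11.94 to 14.49 in liver and lie below 4 on 7 and 8 of the backfat arrays, SAA2 on 17030 is the probe set that lies higher in backfat, and HP spreads from 3.10 to 9.57 in backfat.

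The feeding comparison in liver asked whether restriction changed these genes. No probe set of any gene passed the adjusted threshold of 0.05 in the limma fit of the 8 liver arrays, members included, so that the background of called probe sets was 0%. At an unadjusted p below 0.05 there were 1455 of 12617 probe sets, or 11.5%. CRP had the largest difference among the members, followed by SAA2 on 18948 and LBP on S1, all lower on the low feeding level. Of the 15 tested member probe sets 10 were lower and 5 higher on the low level, with a median difference of -0.34 against -0.01 over all tested probe sets. Member probe sets at an unadjusted p below 0.05 numbered 5 lower, where the background is 6.67%, and 1 higher, where it is 4.86%. A higher liver level of CRP and LBP on the high feeding level was already known from these data when the genes were chosen. The member counts include these genes, so they are no independent evidence of a feeding effect.

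CRP in liver was 11.58 and 12.93 in the high males, 12.52 and 13.24 in the high females, 8.07 and 9.20 in the low males, and 9.89 and 9.49 in the low females. All 4 high arrays lay above all 4 low arrays, in either sex. The means were 12.57 ± 0.72 on the high level and 9.16 ± 0.78 on the low level (SD, n = 4 each). The low minus high difference of CRP was -3.40 ± 0.39 (SE), a 10.6-fold difference, with an adjusted p of 0.266 by limma. Fitting all 16 arrays in 1 model left the difference as it was and gave an adjusted p of 0.0225 by limma. Adding the animal as a block gave 0.0223 by limma. The CRP call thus depends on which arrays are in the fit, and only 1 of the 8 backfat arrays was above 4 for CRP. What lowered the adjusted p there was not tested.

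LBP on S1 was 11.89 and 12.63 in the high males, 11.65 and 12.60 in the high females, 10.43 and 11.06 in the low males, and 9.92 and 10.18 in the low females. The feeding levels did not overlap for LBP either, and CRP and this LBP probe set were the 2 members without overlap. Of all tested probe sets 3.11% were lower without overlap. Since CRP and LBP were chosen with their direction known, that count is no independent evidence either. The LBP means were 12.19 ± 0.50 and 10.40 ± 0.49 (SD, n = 4 each), and the difference was -1.80 ± 0.29 (SE) with an adjusted p of 0.266 by limma. In the fit of all 16 arrays the adjusted p for LBP was 0.0225 by limma, and 0.0223 with the animal block. That fit shares the spread with backfat, where LBP on S1 lay below 4 throughout and varied little (SD 0.20, n = 8). These p-values therefore do not rest on the liver spread alone. The second LBP probe set, A1, was above 4 on 4 high and 2 low arrays, at means of 5.21 ± 0.86 and 3.97 ± 1.01 (SD, n = 4 each), and its adjusted p by limma was 0.493.

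SAA2 on 18948 read 5.81 and 6.54 in the high males, 4.70 and 6.74 in the high females, 3.20 and 4.32 in the low males, and 3.73 and 4.92 in the low females. The groups overlapped, since low female 21 exceeded high female 19, and only 2 of the 4 low arrays were above 4. The means were 5.95 ± 0.92 and 4.04 ± 0.74 (SD, n = 4 each), with an adjusted p of 0.326 by limma. On the other SAA2 probe set, 17030, the low level was higher by 0.39 ± 0.16 (SE), with an adjusted p of 0.409 by limma. With the mean of both probe sets the difference was -0.76, so SAA2 had no settled direction for feeding.

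ITIH4 in liver was 14.61 and 15.16 in the high males, 14.23 and 15.19 in the high females, 14.28 and 14.18 in the low males, and 12.86 and 13.73 in the low females. The groups overlapped by a narrow margin, with low male 15 above high female 19. The ITIH4 difference was -1.03 ± 0.29 (SE) with an adjusted p of 0.326 by limma. Its neighbour ITIH3 differed little, by 0.14 ± 0.21, 0.02 ± 0.25 and -0.34 ± 0.28 (SE) on its probe sets 2, 1 and 3. HP was 15.11, 15.23, 15.14 and 15.33 on the high level and 14.98, 14.87, 15.02 and 15.13 on the low level, a difference of -0.20 ± 0.12 (SE) close to the top of the scale. A2M differed by -0.33 ± 0.18 and -0.62 ± 0.44 (SE) on its 2 tested probe sets, and ORM1 by 0.32 ± 0.38 and 0.27 ± 0.35 (SE), with all 4 adjusted p-values by limma at or above 0.529. APCS differed by -0.54 ± 0.17 (SE), with an adjusted p of 0.349 by limma and overlapping feeding levels.

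**Figure D2:**
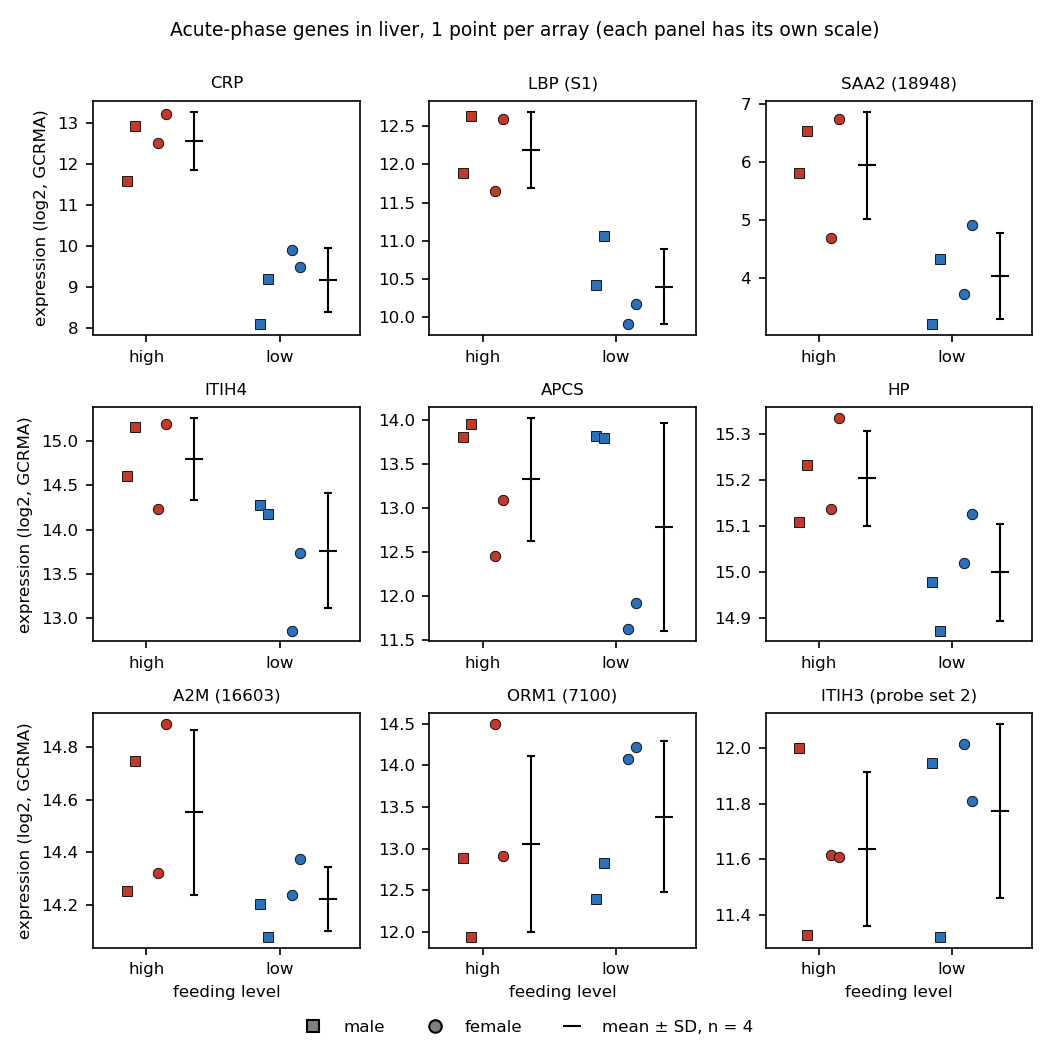
Liver expression (log2, vertical axis, each panel on its own scale) of 9 probe sets, 1 of each gene, by feeding level, with squares for males, circles for females and black bars for the mean ± SD of 4 arrays. High and low arrays are separate for CRP and LBP and overlap for the other 7 probe sets, and APCS and ORM1 split by sex.

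**Figure D3:**
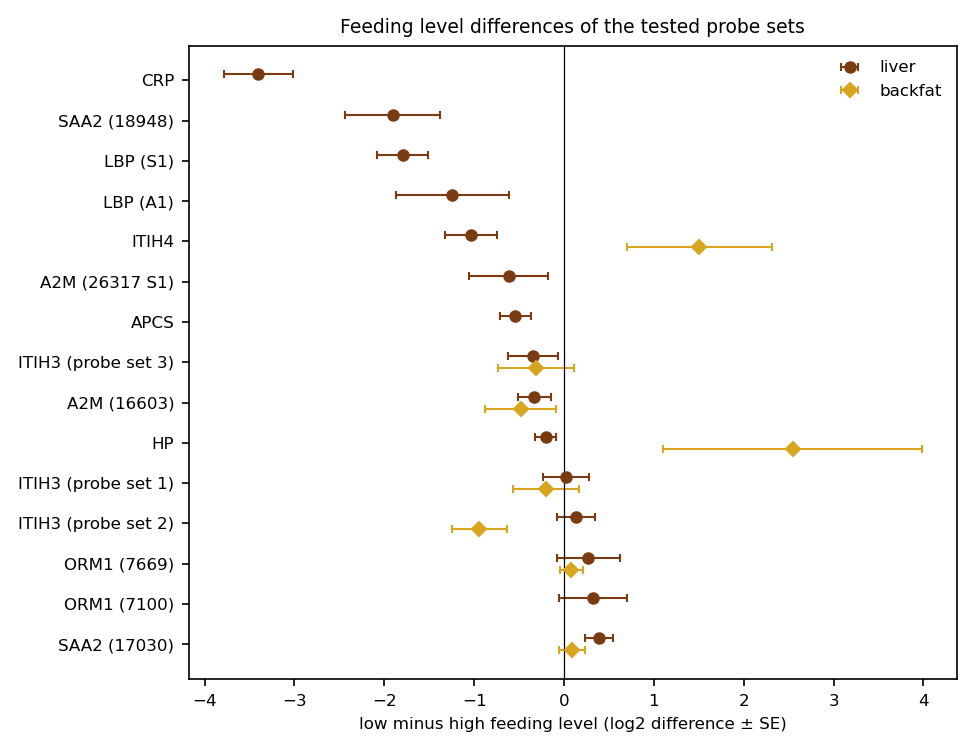
Low minus high difference (log2, horizontal axis, mean ± SE from limma) of the member probe sets tested in liver (brown circles, 15) and in backfat (yellow diamonds, 8). In liver the differences run from -3.40 for CRP to 0.39 for SAA2 on 17030, and in backfat HP and ITIH4 lie at 2.54 and 1.51 with the widest error bars.

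Other genes of the acute-phase response were taken from 3 lists. Of 21 tested genes listed here as rising in inflammation, 0 passed the adjusted threshold for feeding in liver. On the low level 15 were lower and 6 higher, and their median difference was -0.13. ITIH1, ITIH2 and AMBP are on that list and were among the 6, and whether they rise in inflammation was not tested. The lowest p-values belonged to ITIH2 (0.56 ± 0.18), C2 (-0.45 ± 0.18), FGL1 (-0.45 ± 0.19) and C5 (-0.41 ± 0.18, all SE), with adjusted p-values by limma of 0.349 to 0.438. ITIH2, an inter-alpha-inhibitor heavy chain, was thus higher where the complement genes C2 and C5 were lower. Of the 10 tested genes that usually fall in inflammation, 8 were higher and 2 lower on the low level, at a median of 0.07, and 0 passed. The lowest p-values there belonged to IGF1 at -0.54 ± 0.29, F12 at 0.22 ± 0.13, TTR at 0.23 ± 0.19 and AHSG at 0.11 ± 0.15 (SE).

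The signalling list held the cytokines, receptors and transcription factors upstream of these genes. Of its 24 genes on the array 16 were tested in liver, of which 8 were higher and 8 lower on the low level, and 0 passed the adjusted threshold. The glucocorticoid-responsive genes TSC22D3 and FKBP5 differed by 0.55 ± 0.21 and 0.52 ± 0.21 (SE), the NF-kappaB inhibitor NFKBIA by 0.30 ± 0.14 and the lipopolysaccharide receptor TLR4 by -0.42 ± 0.25, with adjusted p-values by limma of 0.405 to 0.558. The probe sets of IL6, IL1B, TNF, IL6R and SOCS3 were below 4 on all 16 arrays, so their levels were not measured in either tissue. The mean of 7 macrophage and Kupffer cell markers in liver was 8.18 to 8.54 on the high level and 7.96 to 8.37 on the low level. All 6 tested markers of that list were lower on the low level and 0 passed the threshold. Its part in the CRP and LBP values was not tested.

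The comparison of sexes in liver called 572 of 12617 probe sets (4.53%), 290 of them lower in females (2.3%) and 282 higher (2.24%). Among the 15 member probe sets tested, APCS passed, and it was lower in females. APCS was 13.81, 13.81, 13.79 and 13.96 in males 14 to 17, a spread of less than 0.2, while females gave 12.45 and 13.09 on the high level and 11.62 and 11.91 on the low level. Every male array exceeded every female array, as for 6.24% of all tested probe sets. The means were 13.84 ± 0.08 in males and 12.27 ± 0.65 in females (SD, n = 4 each), a difference of -1.58 ± 0.17 (SE) or 2.98-fold, with an adjusted p of 0.00601 by limma. The APCS call held in all 18 alternatives, with adjusted p-values by limma of 0.00237 to 0.0363.

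ORM1 on 7100 was 12.89, 12.40, 12.83 and 11.94 in males 14 to 17 and 14.07, 14.49, 12.91 and 14.22 in females 18 to 21. The sexes did not overlap, although high female 20 exceeded high male 14 by a hair; 5.59% of all tested probe sets were higher in females without overlap. The means were 12.52 ± 0.44 in males and 13.92 ± 0.70 in females (SD, n = 4 each), a difference of 1.41 ± 0.38 (SE) with an adjusted p of 0.101 by limma. Without liver female 20 the difference was 1.81. The adjusted p by limma was 0.0163 with all 16 arrays in 1 fit and 0.0165 with the animal block. Those fits share the spread with backfat, where ORM1 on 7100 lay below 4 throughout and varied little (SD 0.18, n = 8). The other tested ORM1 probe set differed by 0.78 ± 0.35 (SE) with an adjusted p of 0.286 by limma, and 0.0217 without liver female 21.

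The female minus male difference was 0.84 ± 0.39 (SE) for CRP, -0.56 ± 0.29 for ITIH4, -0.42 ± 0.29 for LBP and 0.11 ± 0.12 for HP, and their adjusted p-values by limma were 0.299 to 0.704. The feeding difference of APCS in females minus that in males was -0.92 ± 0.35 (SE), with an adjusted p of 0.898 by limma. For SAA2 on 17030 the same contrast was 1.03 ± 0.31 (SE), with an adjusted p of 0.898 by limma. No probe set passed the threshold in that contrast (0%), where 685 (5.43%) were at an unadjusted p below 0.05.

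In the same sex comparison 1 gene of the list that falls in inflammation and 1 of the signalling list passed. SERPINA6, the corticosteroid-binding globulin of plasma, was 9.45, 9.003, 9.28 and 9.49 in males 14 to 17 and 11.02, 10.90, 10.19 and 10.68 in females 18 to 21. The SERPINA6 difference was 1.39 ± 0.19 (SE) with an adjusted p of 0.0142 by limma. It was not past the threshold without male 15, male 16 or female 18, with an adjusted p of up to 0.0621 by limma. FKBP5, a co-chaperone that binds the glucocorticoid receptor complex, was 10.47, 10.79, 10.86 and 9.96 in males and 8.09, 7.76, 8.20 and 8.73 in females. The FKBP5 difference was -2.33 ± 0.21 (SE) with an adjusted p of 0.00292 by limma, past the threshold in all 18 alternatives. Of the 21 tested genes listed as rising in inflammation 0 passed for sex. The lowest p-values were those of CD14 (0.70 ± 0.18), MBL2 (0.70 ± 0.22), HAMP (0.98 ± 0.33) and C9 (-0.28 ± 0.12, all SE). IGF1, F12 and APOA2 differed by -1.01 ± 0.29, -0.31 ± 0.13 and -0.33 ± 0.15 (SE), and NFKBIA and JAK1 by -0.62 ± 0.14 and -0.42 ± 0.12 (SE), with adjusted p-values by limma of 0.0624 to 0.302.

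**Figure D4:**
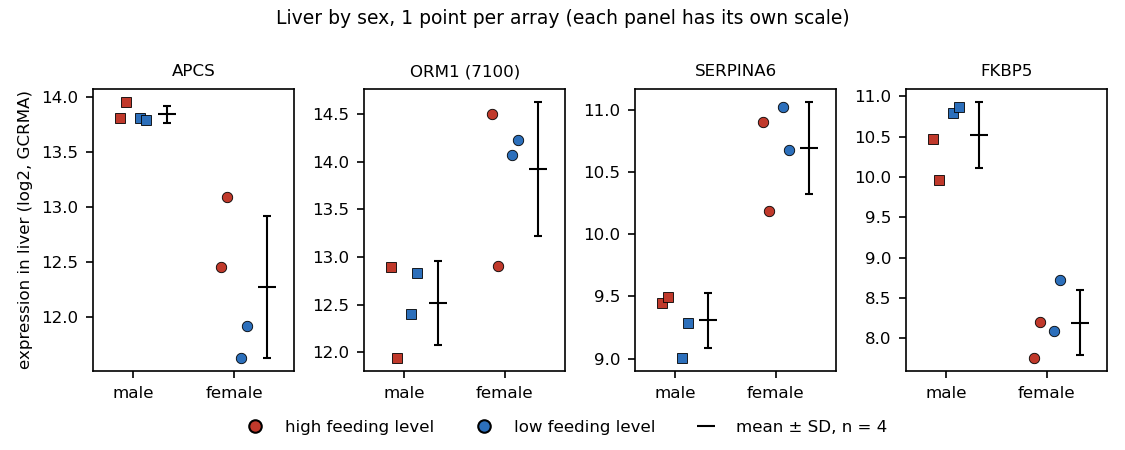
Liver expression (log2, vertical axis, each panel on its own scale) of APCS, ORM1 on 7100, SERPINA6 and FKBP5 by sex, with red points for the high and blue points for the low feeding level and black bars for the mean ± SD of 4 arrays. Males lie above females for APCS and FKBP5 and below them for ORM1 and SERPINA6, and the APCS values of males span 13.79 to 13.96.

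In backfat 8 probe sets of 6 member genes passed the filter, those of CRP, APCS and LBP not among them. For feeding 0 of 12686 probe sets passed the adjusted threshold in limma (0%), with 1410 (11.1%) at an unadjusted p below 0.05. The members split into 4 lower and 4 higher on the low level, with a median difference of -0.06 against 0.01 over all tested probe sets. HP and ITIH4 had the largest differences, both towards higher values on the low level, and ITIH3 the lowest p.

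HP in backfat was 7.22 and 3.56 in the high males, 3.10 and 6.44 in the high females, 9.57 and 4.52 in the low males, and 9.34 and 7.06 in the low females. The highest values belonged to low male 15 and low female 20, and the feeding levels overlapped, with 2 of 4 high arrays above 4. The means were 5.08 ± 2.05 on the high level and 7.62 ± 2.36 on the low level (SD, n = 4 each), a difference of 2.54 ± 1.44 (SE) with an adjusted p of 0.543 by limma. ITIH4 was 5.43 and 5.72 in the high males, 2.67 and 4.51 in the high females, 7.44 and 4.59 in the low males, and 7.35 and 4.97 in the low females. The same low male and low female were highest for ITIH4. Its difference was 1.51 ± 0.81 (SE) with an adjusted p of 0.523 by limma.

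Hepatocyte markers were highest on the same 2 backfat arrays. The mean of the 13 markers was 5.77 in male 15 and 5.87 in female 20, against 2.79 to 4.58 on the other 6 backfat arrays. It ran from 2.79 to 4.41 on the high level and from 3.45 to 5.87 on the low level, with 9 to 13 and 4 to 10 of the 13 markers below 4. The summed level of the 13 was 36.3 to 57.3 on the high level and 44.9 to 76.3 on the low level. All 7 tested markers were higher on the low level, at a median of 2.15, and 0 passed the adjusted threshold. ALB, the main plasma protein, was 10.09 in male 15, 9.30 in female 20 and 3.62 in high female 21.

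The relation to the marker mean over the 8 backfat arrays was computed for all 8 tested member probe sets, after the values of HP and ITIH4 had been seen. Permutations ran over all 8 arrays without regard to sex or feeding level, so their p-values do not measure a relation within those groups. For HP Pearson's r was 0.973 (exact permutation p = 0.000248, two-sided, adjusted over 8 relations 0.00198). Spearman's rho of HP was 0.952 (exact permutation p = 0.00114, adjusted 0.00913), and r was 0.948 without male 15 and female 20, the 2 arrays farthest from the median. For ITIH4 r was 0.888 (exact permutation p = 0.00625, two-sided, adjusted 0.025) and rho was 0.690 (exact permutation p = 0.0694, adjusted 0.278). Without the same 2 arrays r of ITIH4 was 0.638 and rho 0.314, so its relation rested on them. For the other 6 probe sets r ran from -0.61 for ITIH3 on probe set 2 (rho -0.52) to 0.41 for ORM1 on 7669 (rho 0.21). Their exact permutation p-values for r were 0.0817 to 0.977, and adjusted values 0.218 to 0.977. On the 6 arrays without male 15 and female 20, ORM1 on 7669 had an r of 0.837 and a rho of 0.771, with no test. The rest had r from -0.65 for ITIH3 on probe set 3 to 0.17 for A2M on 16603 there. Without male 15 and female 20 the low minus high difference was 0.71 for HP and 0.20 for ITIH4, an alternative added after the values were seen. In male 15 HP lay 5.53 below its liver mean, which is near the top of the scale. The 9 markers above 4 on that array lay 4.80 to 9.95 below theirs, at a median of 8.13. In female 20 HP lay 5.76 below, and the 9 markers above 4 lay 4.78 to 9.39 below, at a median of 6.88. ITIH4 lay 6.84 below its liver mean in male 15 and 6.93 below in female 20. Any part of liver RNA in the HP and ITIH4 values was not tested, and in such bulk samples fewer cells of a type and less RNA per cell cannot be told apart.

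**Figure D5:**
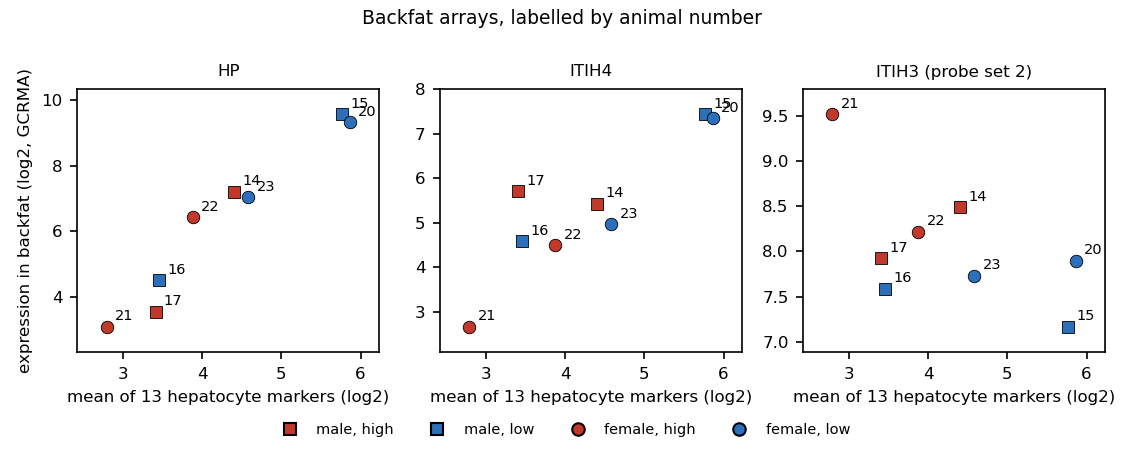
Backfat expression (log2, vertical axes) of HP, ITIH4 and ITIH3 (probe set 2) against the mean level of 13 hepatocyte markers (log2, horizontal axis) on the 8 backfat arrays, labelled by animal number, with squares for males, circles for females, red for high and blue for low. HP climbs with the marker mean over all arrays (r = 0.973), while male 15 and female 20 stand apart at 5.77 and 5.87.

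ITIH3 on probe set 2 was 8.49 and 7.93 in the high males, 9.52 and 8.22 in the high females, 7.17 and 7.59 in the low males, and 7.90 and 7.73 in the low females. All 4 high arrays exceeded all 4 low arrays, although high male 17 and low female 20 were close; 3.36% of all tested probe sets were lower on the low level without overlap. The means were 8.54 ± 0.69 and 7.60 ± 0.31 (SD, n = 4 each), a difference of -0.94 ± 0.31 (SE) with an adjusted p of 0.345 by limma. ITIH3 probe sets 1 and 3 overlapped, at -0.20 ± 0.37 and -0.31 ± 0.43 (SE). Female 21 was highest on all 3 ITIH3 probe sets and lowest for HP, ITIH4 and the hepatocyte marker mean. The mean of 7 macrophage markers in backfat was 4.77 to 6.12 on the high level and 4.04 to 4.94 on the low level, highest in female 21. All 6 tested macrophage markers were lower on the low level, 3 of them at an unadjusted p below 0.05, and 0 passed the adjusted threshold. The mean of 6 adipocyte markers was also highest in female 21, at 12.53 against 11.37 to 11.79 on the other backfat arrays. Of these markers 5 were lower and 1 higher on the low level, and 0 passed. The part of macrophages or adipocytes in the ITIH3 values was not tested.

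A2M in backfat was 8.57, 7.97, 7.95 and 7.15 on the high level and 7.83, 6.24, 8.14 and 7.51 on the low level, a difference of -0.48 ± 0.40 (SE). It ranged from -0.88 to -0.085 with each array left out in turn, and was -1.04 without male 15 and female 20. SAA2 on 17030 and ORM1 on 7669 varied little in backfat, with differences of 0.09 ± 0.14 and 0.08 ± 0.12 (SE). For sex in backfat 14 of 12686 probe sets passed (0.11%), 0 of them members, and 766 (6.04%) were at an unadjusted p below 0.05. The female minus male differences of ITIH3 probe sets 1, 2 and 3 were 0.82 ± 0.37, 0.55 ± 0.31 and 0.59 ± 0.43 (SE), with adjusted p-values by limma of 0.822 to 0.866.

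Among the other acute-phase genes in backfat 0 of 19 tested genes listed as rising in inflammation passed for feeding. On the low level 12 were higher and 7 lower, at a median of 0.71. The mean of the 22 genes of that list on the array was 6.62 in male 15 and 6.58 in female 20, against 5.11 to 5.75 on the other 6 backfat arrays. FGB and SERPINA1 of the list are also hepatocyte markers, and the part of liver RNA in the median was not tested. ITIH1, another inter-alpha-inhibitor heavy chain, was 5.45 to 5.89 on the low level and 4.07 to 4.76 on the high level, a difference of 1.24 ± 0.23 (SE) with an adjusted p of 0.198 by limma. C9, the pore-forming complement component, differed by -0.93 ± 0.17, C2 by -0.66 ± 0.23 and FGL1 by 0.71 ± 0.30 (SE). Among 6 tested genes that fall in inflammation, TF, ALB, TTR and RBP4 differed by 2.15 ± 0.82, 2.37 ± 1.23, 1.03 ± 0.54 and 0.40 ± 0.18 (SE). TF, ALB and TTR are also hepatocyte markers of the list above. In the signalling list NR3C1, the glucocorticoid receptor, differed by 0.48 ± 0.21, CEBPD by 1.02 ± 0.63, CEBPA by -0.38 ± 0.23 and CD14 by -0.41 ± 0.26 (SE). The 15 tested signalling genes gave 8 higher and 7 lower, and 0 passed.

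Whether the feeding effect differed between the tissues was tested over all 16 arrays. Only 3 of 13962 probe sets passed (0.0215%), 0 of them members, and 1225 (8.77%) were at an unadjusted p below 0.05. For CRP the feeding effect in liver minus that in backfat was -4.01 ± 0.62 (SE) with an adjusted p of 0.116 by limma, although 7 of 8 backfat values lay below 4. In that contrast CRP passed with values under 4 set to 4 (-3.52, adjusted p 0.0279 by limma), without liver male 14 (0.0352) and without backfat female 23 (0.0134). LBP on S1 gave -1.77 ± 0.35 (SE) with an adjusted p of 0.162 by limma, although its backfat values lay below 4 throughout. With nearly all backfat values of CRP and LBP below 4, their feeding response in backfat was not measured. Their contrasts, and the passes of CRP, therefore reflect mostly the liver difference and cannot show that backfat responds otherwise. HP and ITIH4 gave -2.75 ± 1.58 and -2.54 ± 0.94 (SE), and ITIH3 on probe set 2 1.08 ± 0.39, with adjusted p-values by limma of 0.463 to 0.681. A p above the threshold does not show that the tissues responded alike.

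The genes whose liver pattern was most like a member were named from 4919 genes with a single symbol, by Pearson's r across the 8 liver arrays, as a description with no test. For CRP these were SDC2, SRP9 and SNX6 (r of 0.983, 0.974 and 0.964). For LBP they were RAB23, HSP90B1 and PCGF3 (0.962, 0.959 and 0.959), for ITIH4 MFAP1, GMFG and PPP1R2 (0.983, 0.980 and 0.961), and for HP RABAC1, FAM32A and SRPRA (0.996, 0.985 and 0.984). For SAA2 on 17030 they were ALKBH5, VTN and TPP1 (0.977, 0.964 and 0.939). The arrays share their normalization, and with 8 points and 6346 probe sets searched such values are among the highest of many.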

How the data were processed

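Per the labels' protocols, RNA was isolated with the RiboPure kit and labelled cRNA was put on Affymetrix arrays for the pig. The authors deposited log2 expression values, made with GCRMA per the submitters' processing notes, which model background by probe sequence. Low values therefore depend on that model, and differences near 4 are less certain than their errors show. The version and settings, joint normalization of the arrays, and scan dates or batches were not given in the sources used here. Of 24123 probe sets, 124 controls were left out. The annotation gave several symbols to 198 probe sets and did not list 13732. No 2 arrays were identical.

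Group means of tissue, sex and feeding level were fitted with limma 3.58.1 (lmFit, eBayes) in R 4.3.3, and checked on simulated data. Probe sets above 4 (log2) on at least 2 arrays of a fit were tested. Benjamini-Hochberg adjustment of the limma p-values ran over all tested probe sets, with a threshold of 0.05. The SD of 4 arrays includes the other factor. The limma p-values set a difference against the spread within groups of 2 arrays, drawn towards the spread of all tested probe sets. Folds against a group wholly below 4 use 4.

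Genes and lists were chosen with earlier results of these data known. The lists described were genes taken to rise or fall in inflammation, signalling, and hepatocyte, adipocyte, macrophage and neutrophil markers. Lists of lymphocyte, endothelial, fibroblast and stellate cell, erythroid and skeletal muscle markers were also run and are not described. All member probe sets are named. Each acute-phase list gives its 4 genes of lowest p for feeding in either tissue and for sex in liver, by the tested probe set of highest mean. The 3 most similar genes are given for CRP, HP, SAA2, ITIH4 and LBP.

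Animal numbers pair the tissues of males 14 to 17, by the labels, not of females. Deviations from group means correlated at 0.118 for males 14 and 17 and 0.0612 for males 15 and 16. Alternatives were other filters, an intensity trend with robust estimation, quantile or median normalization, values under 4 set to 4, array weights, no interaction term, all 16 arrays in 1 fit, the animal as a random block, each array left out, and the mean of a gene's probe sets.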

Additional observations from a re-analysis of the deposited data

Results flagged for a closer look

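In groups of 4 or 8 arrays, 75 groups were searched for an array far from the others, and 9 had one. Chance flags about 1 in 20 such groups, and the groups of 4 lie within those of 8, so the 9 are not independent.

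Backfat female 21 accounted for 4 of the 9. Its ITIH3 values were 7.99 on probe set 1, where the other 7 backfat arrays lay at 5.91 to 6.84, and 5.57 on probe set 3, which stood apart both among the 4 high arrays (others 3.44 to 3.57) and among all 8 (others 3.38 to 4.004). Its ORM1 value on 7669 was 8.50, below the others at 8.75 to 8.94. The same array had the lowest hepatocyte marker mean, 2.79, with all 13 markers below 4. Its macrophage and adipocyte marker means, 6.12 and 12.53, were the highest in backfat.

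CRP was 4.46 in backfat female 20, against 2.39 to 2.81 on the other backfat arrays. APCS was 4.96 in backfat male 15, against 2.11 to 2.65. These are the 2 backfat arrays of highest hepatocyte marker mean, 5.87 and 5.77.

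In liver, ITIH3 on probe set 1 was 7.97 in male 17, where the other high arrays lay at 8.83 to 8.97, and on probe set 3 5.22 in female 21, where the other low arrays lay at 4.93 to 4.96. A2M on 26317 A1 was 4.73 in liver male 15, the only array on which that probe set exceeded 4, against 2.21 to 3.21 elsewhere in liver.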

How the results depend on the processing

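Alternatives were compared for 55 member results, not for all. These held every tested member for feeding in either tissue and for tissue. For sex, sex by feeding in liver and the difference between tissues they held only some. Of the 55, 42 kept direction and side of the threshold under every alternative run. Another 5 gained a call under some alternative and 8 changed sign, 1 of which also lost its call. The cause of these changes was not tested, except where noted.

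With all 16 arrays in 1 fit, or the animal as a replicate block, 12 and 12 probe sets passed for feeding in liver, 71 and 72 for feeding in backfat, 981 and 980 for sex in liver, and 26 and 26 for sex in backfat. The block moved no member across the threshold beyond the joint fit. Without a filter 333 passed for sex in liver and 15 for the difference of the feeding effect between tissues; that difference had 1 with a filter at 6, 1 with a trend and robust estimation and 1 with quantile normalization. Without the interaction term 1 passed for feeding in backfat. Leaving out each array in turn gave 0 to 1 for feeding in liver, 0 to 1 in backfat, 177 to 449 for sex in liver, 11 to 15 in backfat, 0 to 1 for sex by feeding in liver, 10176 to 10580 for tissue and 1 to 34 for the difference between tissues. Fewer arrays are compared in these.

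With the mean of a gene's tested probe sets, the SAA2 values of 17030 became -0.76 for feeding in liver and 0.23 for tissue, where the call was lost (adjusted p 0.177 by limma), and ITIH3 on probe set 2 became -0.062 for feeding in liver, since the probe sets differ in sign. With each array left out, feeding in liver ranged from -0.034 to 0.30 and -0.23 to 0.27 for ITIH3 (probe sets 2 and 1) and from -0.075 to 0.72 and -0.15 to 0.70 for ORM1 (7100 and 7669). In backfat it ranged from -0.64 to 0.24 for ITIH3 (probe set 1) and from -0.0047 to 0.18 for SAA2. Signal limits the backfat values of CRP, LBP and APCS, which lie below 4 on 7 or 8 arrays, and HP in liver lies near the top of the scale.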
